A study of Mus musculus with 18 samples.

Results

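Carriers of amino acids were followed through primary culture of mouse kidney tubules, with the genes chosen by name from the amino acid transporter families so that carriers of the reabsorbing tubule could be set beside carriers of growing cells. They are 10 of the 55421 genes measured, and all 10 were among the 18754 genes with counts high enough to test. The luminal carriers Slc6a19, Slc3a1 and Slc7a9 and the basolateral carriers Slc7a7 and Slc7a8 belong to the tubule. Slc3a2, Slc7a5, Slc1a5, Slc38a2 and Slc1a4 are carriers of growing cells. PolyA RNA was sequenced in 18 libraries, replicates A, B and C of each of days 0, 1, 2, 4, 7 and 14. All libraries came from wild type C57BL/6J mice, female and 6 weeks of age, whose minced kidneys were digested with collagenase. Tubules were purified on Percoll and kept on plastic without subculture or any further treatment, and day 0 is the isolated tubule. The replicates are labelled biological, but separate mice or dishes are not named, so a p-value here reflects the spread among libraries of a day, part or all of which may be technical.

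The proximal tubule takes back filtered amino acids in a relay across the cell. Slc6a19 (B0AT1) brings neutral amino acids in from the lumen with sodium, and its loss causes Hartnup disorder, while the heavy chain Slc3a1 (rBAT) and its light chain Slc7a9 exchange cystine and basic amino acids and are the genes of cystinuria. At the blood side, the light chains Slc7a7 (y+LAT1, the gene of lysinuric protein intolerance) and Slc7a8 (LAT2) let amino acids out, each bound to the heavy chain Slc3a2 (CD98). Slc3a2 also carries Slc7a5 (LAT1), the importer of large neutral amino acids in dividing cells, and such cells further use the glutamine carrier Slc1a5 (ASCT2), the sodium-coupled neutral amino acid carrier Slc38a2 (SNAT2) and the serine and alanine carrier Slc1a4 (ASCT1).

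Library totals lay between 23799559 and 37579097 estimated counts. Markers of the labelled cell type were high at isolation: the summed level of 10 proximal tubule genes was 9125 to 10385 TPM (transcripts-per-million, a level per transcript length) on day 0, 2379 to 4381 on day 1, 478 to 860 on day 2 and 6.92 to 13.1 on day 14. Day 0 also held transcripts of other cells, with 1805 to 2408 TPM summed over 8 genes of the loop of Henle and distal nephron (78.5 to 89.6 on day 14, Slc4a1 at 0), 164 to 259 over 5 red blood cell genes (all 5 at 0 counts on day 4), 57.1 to 64.8 over 6 endothelial genes (1.3 to 1.82 on day 14) and 80.5 to 103 over 4 podocyte genes (37.3 to 45.5 on day 14). Over 7 macrophage genes the sum was 17.2 to 49.2 on day 0 and 29.8 to 44.5 on day 14, and over 6 fibroblast genes 9.45 to 13.5 and 26.4 to 35.7. The part of these cells in the carriers' values was not tested, and in bulk RNA fewer cells of a type and less RNA per cell cannot be told apart. Replicate C of day 7 stood apart from A and B: its mean correlation with the day 4 libraries was 0.975, against 0.952 and 0.953. A part of the day 7 values is therefore also given without it. Where nothing is said, replicate C is included.

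The start sites of 8 of the 10 carriers have a promoter window in RefSeq (GRCm38.p6), reaching from 250 bases before to 50 bases after the start. The 4 stretches below are shown because they hold a letter match to an element known from tubule genes or from genes of amino acid shortage. Capitals mark the match, bases are counted from the start site, and each stretch is written 5′ to 3′ on the strand of the gene.
Slc3a1: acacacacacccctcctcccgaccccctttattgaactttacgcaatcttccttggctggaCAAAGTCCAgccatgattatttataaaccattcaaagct
Slc7a9: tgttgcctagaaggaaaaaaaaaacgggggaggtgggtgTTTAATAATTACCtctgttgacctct
Slc7a7: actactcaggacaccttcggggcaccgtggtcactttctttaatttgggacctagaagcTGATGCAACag
Slc1a4: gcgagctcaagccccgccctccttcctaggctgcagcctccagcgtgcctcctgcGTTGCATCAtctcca

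The Slc3a1 stretch (chr17:85028247-85028346, plus strand) holds the HNF4 letters CAAAGTCCA from base -39 to -31. The Slc7a9 stretch (chr7:35448972-35449036, plus strand) holds from -81 to -69 a match with 2 mismatches to the HNF1 element, which is GTTAAT, any 1 base and the reverse complement of GTTAAT. Both factors, HNF4 and HNF1, are known as activators of proximal tubule genes. The Slc7a7 stretch (chr14:54417935-54418004, minus strand) and the Slc1a4 stretch (chr11:20332704-20332773, minus strand) hold the C/EBP-ATF response element, TGATGNAAN, the letters through which ATF4 is known to act. It lies from -1 to 8 in Slc7a7, and on the opposite strand from -5 to 4 in Slc1a4. Slc7a7 has 5 windows and Slc7a9 2, and bases are counted from the most upstream start whose printed stretch holds the match. From another start the Slc7a7 match lies from -243 to -235, and the Slc7a9 match from -168 to -156.

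Both strands of all 32851 RefSeq windows were searched. The HNF4 letters were in 0.475% of windows, the HNF1 element with up to 2 mismatches in 1.36%, and the C/EBP-ATF letters in 3.95%. The AP-1 letters TGAGTCA, in 5.2% of windows, occurred in Slc3a1 from -140 to -134. Slc7a7 held a further C/EBP-ATF match, TGATGAAAG, from -141 to -133. The E-box letters CACGTG, in 7.15% of windows, occurred in none of the 8 carriers, and the other 4 elements in none of Slc6a19, Slc7a8, Slc3a2 and Slc38a2. A match is a run of letters and was not tested for binding. Slc7a7 fell in culture and Slc1a4 rose, and a link between a match and a level was not tested.

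Before the single carriers, the levels per length show how their order turned over. On day 0 the leading carrier was Slc3a2 at 467 ± 2.33 TPM (SD, n = 3 here and for every mean ± SD). Slc3a1 at 368 ± 26.3 and Slc6a19 at 357 ± 35.8 followed with overlapping libraries, then Slc7a9 at 279.7 ± 23.3 and Slc7a7 at 266 ± 17.9, which also overlapped, and Slc7a8 at 234 ± 16.2. The other 4 carriers of growing cells were far lower: Slc1a5 had 23.4 ± 2.37 TPM, Slc38a2 17.3 ± 1.06, Slc7a5 1.48 ± 0.186 and Slc1a4 0.940 ± 0.0361.

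By day 14 those 4 and Slc3a2 had become the 5 leading carriers. Slc38a2 at 321 ± 21.4 TPM and Slc3a2 at 310.1 ± 19.3 overlapped at the top, followed by Slc7a5 at 108 ± 2.29, Slc1a5 at 83.0 ± 5.77 and Slc1a4 at 52.0 ± 3.30, each apart from the next. The 5 tubule carriers came last, from Slc7a7 at 4.03 ± 0.637 TPM, which overlapped Slc7a8 at 2.63 ± 0.680, down to Slc6a19 at 1.06 ± 0.144, Slc3a1 at 0.863 ± 0.223 and Slc7a9 at 0.570 ± 0.436. Libraries of the last 3 overlapped from 1 gene to the next. In between, on day 1, Slc3a2 led at 766 ± 26.3 TPM, and Slc38a2 at 176 ± 16.0 overlapped Slc6a19 at 158 ± 11.5.

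**Figure D1:**
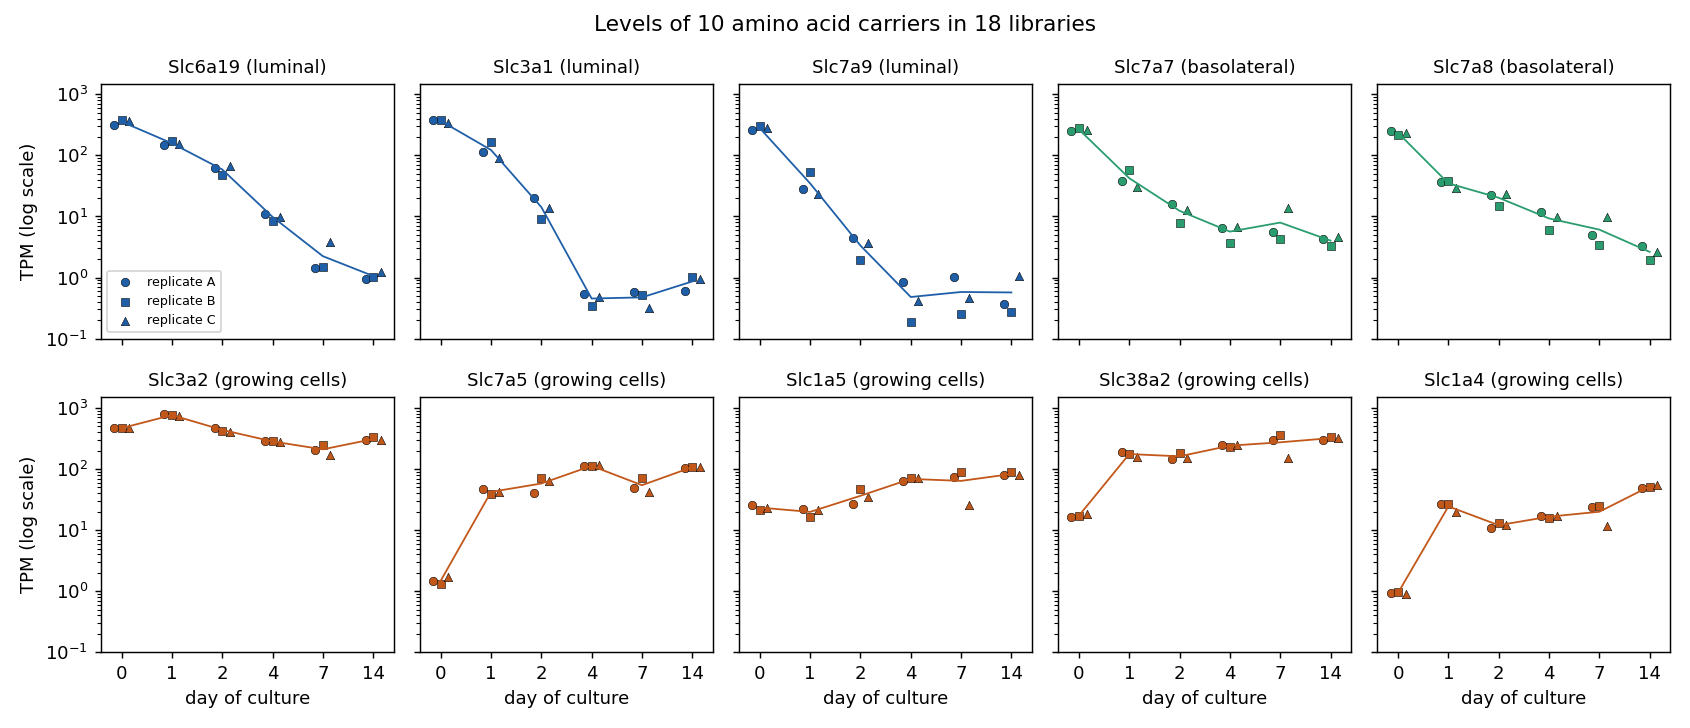
TPM of each carrier (log axis) against day of culture, 1 panel per gene; points are single libraries, with the marker shape giving the replicate, and lines join the day means. The 5 tubule carriers (upper row) start between 217 and 387 TPM and end between 0.27 and 4.55, while Slc7a5, Slc38a2 and Slc1a4 (lower row) start at or below 18.5 TPM and end at or above 48.8.

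Summed by class, the luminal carriers held 1005 ± 63.9 TPM on day 0, the basolateral carriers 501 ± 2.00 and the carriers of growing cells 511 ± 3.44. The growing-cell carriers thus made up 25.3% of the 10 carriers' transcripts per length at isolation, and 72.5%, 86.6%, 96.6%, 96.7% and 99.0% on days 1, 2, 4, 7 and 14. Without replicate C of day 7 the value of that day was 98.4%. Much of this share was Slc3a2, which also serves the basolateral light chains. The other 4 growing-cell carriers made up 2.14%, 18.5% and 32.9% of the 10 carriers' sum on days 0, 1 and 2. On days 4, 7 and 14 they made up 58.7%, 62.9% (53.6% to 67.9% over the day 7 libraries) and 63.8%. These shares are values with no test.

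The classes did not change by equal amounts. The sum over all 10 carriers went from 2016 ± 63.5 TPM on day 0 to 749 ± 12.8 on day 4 and 883 ± 46.8 on day 14. Luminal carriers went down to 316 ± 63.2, 76.5 ± 15.4, 10.8 ± 1.78, 3.29 ± 1.17 and 2.49 ± 0.677 TPM over the 5 culture days, and basolateral carriers to 77.3 ± 18.7, 32.7 ± 8.67, 15 ± 4.56, 14.0 ± 8.66 and 6.66 ± 1.21. Without Slc3a2, which was already high, the carriers of growing cells went in sum from 43.1 TPM at isolation to 263 on day 1, 440.1 on day 4 and 564 on day 14.

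**Figure D2:**
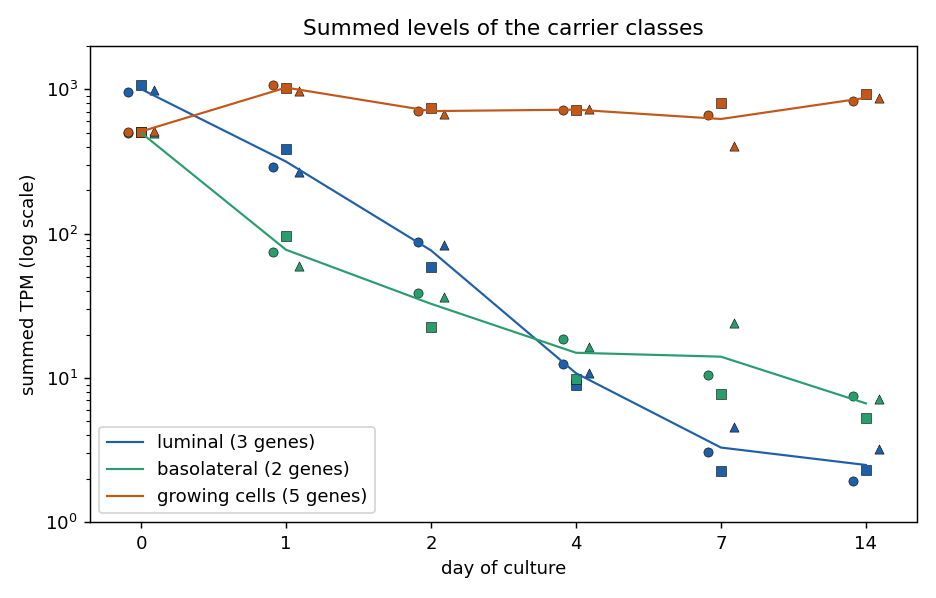
Summed TPM (log axis) of the 3 luminal, 2 basolateral and 5 growing-cell carriers against day of culture; points are single libraries (circle A, square B, triangle C) and lines join the day means. The luminal sum falls from 1005 to 2.49 TPM between day 0 and day 14 and crosses below the basolateral sum at day 4, while the growing-cell sum lies between 511 and 1029 on every day mean.

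Differences between days were tested on the counts with edgeR's quasi-likelihood test in 1 model of all 18 libraries. A call means a Benjamini-Hochberg adjusted p under 0.05 over the 18754 genes, and levels below are counts-per-million (CPM) on TMM-scaled library sizes, which compare a gene with itself but not genes with each other. All 10 carriers differed among the days, with adjusted p from 4.39e-13 for Slc3a1 to 0.000754 for Slc1a5 by edgeR's test of any difference, where 89.8% of all genes were called.

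Day 1 against day 0 asks what the first day on plastic did. All 3 luminal and both basolateral carriers fell, Slc3a2, Slc7a5, Slc38a2 and Slc1a4 rose, and Slc1a5 was not called. Of all genes, 70.2% were called in this comparison, 33.1% higher and 37.1% lower, so being called was usual, and the carriers are told apart by size: the median log2 fold change was -1.93 for the luminal, -3.05 for the basolateral and 2.99 for the growing-cell carriers, beside -0.01 for all genes. Every comparison with day 0 uses the same 3 day 0 libraries, so the comparisons are not independent of one another.

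Slc6a19, the sodium-driven entry of neutral amino acids, fell in steps through the whole culture. Its day 0 libraries held 1228, 1544 and 1455 CPM, the day 1 libraries 425, 531 and 424, the day 2 libraries 151, 108 and 161 and the day 4 libraries 24, 17.9 and 22.5. On day 7 replicates A, B and C held 3.25, 2.94 and 7.50 CPM, and on day 14 1.90, 1.92 and 2.25. No library of a day reached the lowest library of the preceding sampled day. The log2 fold change against day 0 was -1.62 ± 0.25 (SE, as for every fold change below) on day 1, with an edgeR adjusted p of 2.28e-05, and -9.44 ± 0.36 on day 14, with 3.4e-12. That is 3.06-fold lower after 1 day and 697-fold lower after 14.

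Of the 10 carriers only Slc6a19 was called lower in all 5 steps between consecutive days. From day 4 to day 7 it fell by 2.24 on the log2 scale (edgeR adjusted p = 3.61e-05). From day 7 to day 14 the change was -1.16 ± 0.30 (edgeR adjusted p = 0.0205), and -0.62 (edgeR adjusted p = 0.0946) without replicate C of day 7.

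Slc3a1, the heavy chain of the cystine carrier, reached its floor by day 4. The libraries held 802, 844 and 730.4 CPM on day 0, 188, 287 and 147 on day 1, and 28.8, 12.8 and 20.1 on day 2. On day 4 they held 0.728, 0.487 and 0.669 CPM, which is 57 counts over 3 libraries, and on day 14 0.746, 1.28 and 1.14. Days 0, 1, 2 and 4 did not overlap, and day 7 overlapped both day 4 and day 14, which were apart from each other. The step from day 2 to day 4 was the largest between consecutive days for any of the 10 carriers, with a log2 fold change of -5.03 ± 0.36 (edgeR adjusted p = 7.28e-08).

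From then on Slc3a1 showed no called change, at 0.01 ± 0.48 from day 4 to day 7 and 0.73 ± 0.44 from day 7 to day 14 (edgeR adjusted p = 0.997 and 0.321). The interval of the latter, -0.21 to 1.67, includes a rise as well as no change. Against day 0 it stood 1261-fold lower on day 4 and 749.9-fold lower on day 14.

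Slc7a9, the light chain that Slc3a1 carries, had a lower fold change than its partner on day 1, a difference between genes that was not tested. Its libraries held 401, 500.1 and 439 CPM on day 0, then 34.6, 69.8 and 28.0 on day 1 and 4.81, 2.09 and 3.44 on day 2. The day 4 libraries held 0.854, 0.162 and 0.423 CPM and those of day 14 0.249, 0.249 and 0.717, or 44 and 37 counts over 3 libraries. Days 4, 7 and 14 overlapped, and at these counts no difference among them was detectable. The log2 fold change against day 0 was -3.34 ± 0.36 on day 1, where Slc3a1 had -1.93 ± 0.26, and -9.84 ± 0.52 on day 4, where Slc3a1 had -10.29 ± 0.40 (edgeR adjusted p at most 5.53e-06 for all 4). In TPM the level of Slc3a1 was 1.32 ± 0.136 times the summed level of Slc7a9 and Slc7a13, its light chains, on day 0, 3.66 ± 0.485 times on day 1 and 4.32 ± 0.537 times on day 2. On days 4 and 7 it was 1.08 ± 0.395 and 1.10 ± 0.851 times, and 1.99 ± 1.31 on day 14, from the low counts of both genes. On day 0 Slc7a9 made up nearly all of that sum.

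The basolateral light chains lost most of their transcripts in the first day. Slc7a7, the exit of basic amino acids, went from 454, 541 and 490.4 CPM on day 0 to 54.0, 89.1 and 41.4 on day 1, 20, 9.97 and 17.6 on day 2 and 8.26, 4.97 and 7.93 on day 4. Its day 7 libraries held 6.70, 5.24 and 16.4 CPM, with replicate C highest, and its day 14 libraries 4.72, 3.63 and 4.3. The log2 fold change against day 0 was -3.01 ± 0.38 on day 1, -6.13 ± 0.44 on day 4 and -6.87 ± 0.46 on day 14 (edgeR adjusted p = 2.84e-06, 3.11e-09 and 1.58e-09). Neither later step was called: 0.42 ± 0.38 from day 4 to day 7 and -1.15 ± 0.40 from day 7 to day 14 (edgeR adjusted p = 0.419 and 0.0698). Without replicate C of day 7 these steps were -0.23 and -0.51 (edgeR adjusted p = 0.602 and 0.395), and without replicate B the latter was -1.44 and called (edgeR adjusted p = 0.0238).

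Slc7a8, the exit of neutral amino acids, went from 1003, 902 and 969.7 CPM on day 0 to 115, 129 and 91.6 on day 1. The later libraries held 61.4, 39.0 and 66.5 CPM on day 2, 31.3, 16.4 and 25.4 on day 4, 12.7, 8.47 and 24 on day 7, and 7.61, 4.63 and 6.00 on day 14. Its libraries were apart on days 0, 1, 2 and 4 and overlapped between days 4 and 7 through replicate C of day 7. The fold change on the log2 scale was -3.10 ± 0.33 on day 1 and -7.30 ± 0.41 on day 14 (edgeR adjusted p = 4.53e-07 and 1.73e-10), and the last step, from day 7 to day 14, was -1.30 ± 0.33 (edgeR adjusted p = 0.019). Without replicate C of day 7 that step was -0.80 (edgeR adjusted p = 0.0777), and the step from day 4 to day 7, -0.69 ± 0.32 with all libraries (edgeR adjusted p = 0.0977), was -1.19 (edgeR adjusted p = 0.0022).

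Both basolateral genes kept more than the cystine carrier did. On day 14 Slc7a7 held 0.853% and Slc7a8 0.635% of its day 0 CPM, Slc6a19 0.144%, Slc3a1 0.133% and Slc7a9 0.0906%. These shares were not tested against each other.

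**Figure D3:**
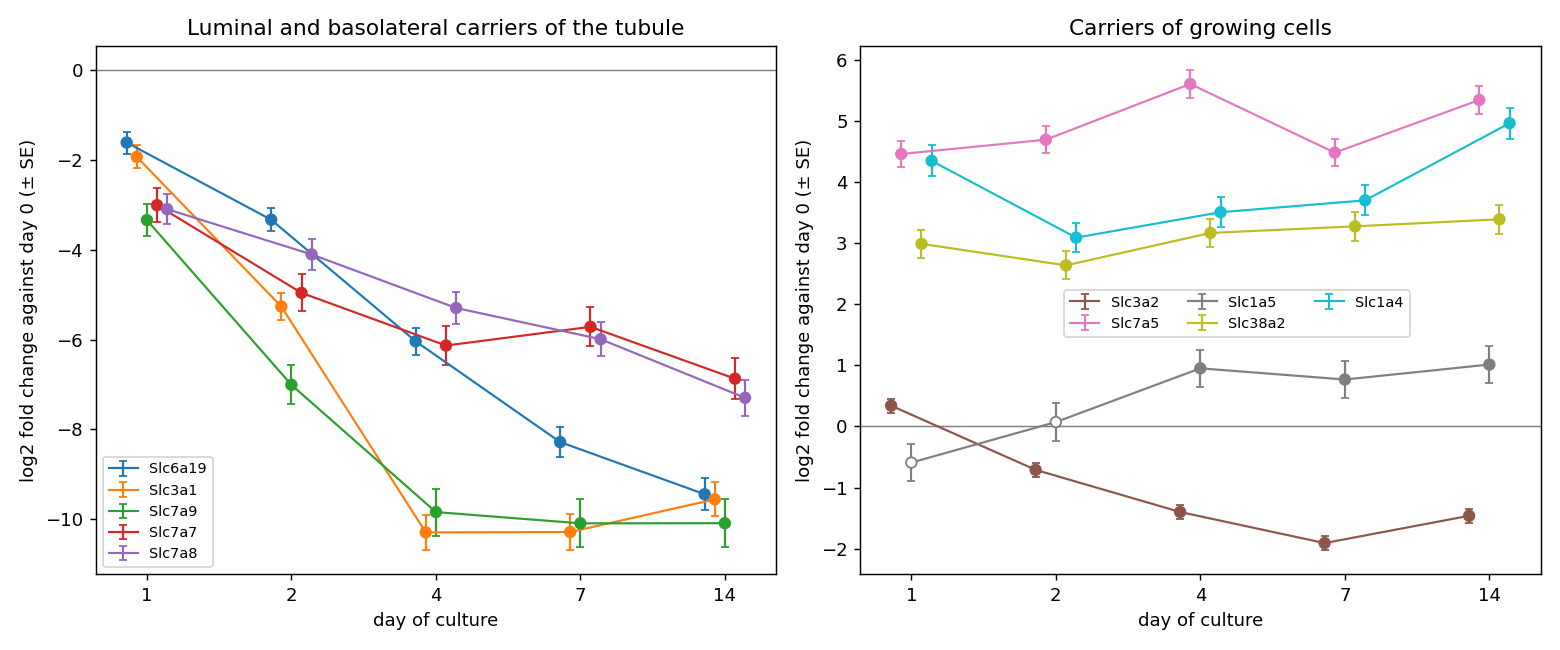
Log2 fold change against day 0 from the edgeR model (± SE) for the 5 tubule carriers (left) and the 5 growing-cell carriers (right); filled points have an adjusted p under 0.05 and open points do not. The tubule carriers lie between -1.62 and -10.29 on all days, while Slc7a5, Slc38a2 and Slc1a4 lie between 2.64 and 5.61 and Slc3a2 passes from 0.34 to -1.91.

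Slc7a5, the importer of leucine and other large neutral amino acids, showed the largest rise of the 10 against day 0 on each culture day. It was nearly silent in the isolated tubule, with 5.02, 4.65 and 5.90 CPM, and held 123, 109.6 and 108 CPM on day 1. Later libraries held 94.7, 157 and 149.6 CPM on day 2, 247, 253 and 255 on day 4, 108, 153 and 86.3 on day 7, and 203, 219 and 208 on day 14. Every culture library lay above every day 0 library, and day 7 lay below days 4 and 14. The log2 fold change against day 0 was 4.46 ± 0.22 on day 1, 5.61 ± 0.23 on day 4 and 5.34 ± 0.23 on day 14 (edgeR adjusted p = 8.36e-11, 7.09e-12 and 1.13e-11), which is 21.9, 48.5 and 40.5-fold.

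The course of Slc7a5 dipped on day 7. It fell by 1.12 on the log2 scale from day 4 to day 7 (edgeR adjusted p = 0.000305) and rose by 0.86 ± 0.18 from day 7 to day 14 (edgeR adjusted p = 0.00684). Without replicate C of day 7 these steps were -0.95 and 0.69 (edgeR adjusted p = 0.000247 and 0.0125).

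Slc38a2, a carrier known to be induced when amino acids are short, rose on day 1 and stayed high. Its libraries held 77.5, 80.3 and 88.2 CPM on day 0 and 695, 689 and 569 on day 1. Later they held 473, 568 and 488 on day 2, 732, 733 and 746 on day 4, 898, 1054 and 429 on day 7, and 792, 925 and 864 on day 14. The lowest culture library, replicate C of day 7, was still several times the highest library of day 0. The log2 fold change was 2.99 ± 0.23 on day 1 and 3.39 ± 0.24 on day 14 (edgeR adjusted p = 1.29e-08 and 2.56e-09), or 7.94 and 10.5-fold. With all libraries no step between consecutive culture days was called, and the closest, from day 2 to day 4, was 0.53 ± 0.22 (edgeR adjusted p = 0.0594). That rise was called in 12 of 27 alternatives. With replicate C of day 7 left out it was 0.53 (edgeR adjusted p = 0.000228), the step from day 1 to day 2 was -0.35 (0.00698) and the step from day 4 to day 7 was 0.41 (0.00448), all called.

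Slc1a4, which exchanges serine, alanine and cysteine, rose, fell back and rose again. It went from 3.60, 3.85 and 3.49 CPM on day 0 to 81.6, 84.7 and 57.4 on day 1, then to 28.3, 32.6 and 32.7 on day 2 and 42.6, 40.2 and 42.0 on day 4. The day 7 libraries held 57.5, 58.2 and 27.0 CPM and the day 14 libraries 107, 116 and 120.1. Day 14 was above every other library, and day 2 was below day 1 without overlap. The fold against day 0 was 20.4 on day 1, 8.55 on day 2 and 31.3 on day 14, with log2 values of 4.35 ± 0.25, 3.09 ± 0.24 and 4.96 ± 0.26 (edgeR adjusted p = 4.75e-10, 1.06e-08 and 7.77e-11). The fall from day 1 to day 2 was -1.26 ± 0.21 and the rise from day 7 to day 14 1.26 ± 0.21 (edgeR adjusted p = 0.000297 and 0.00164). Without replicate C of day 7 the latter was 0.98 (edgeR adjusted p = 9.63e-05).

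Slc1a5, the glutamine carrier, differed most from day 0 on day 14, by 1.01 on the log2 scale. On TMM scaling this was the smallest such value of the 10, a rank that depends on the scaling. In TPM Slc1a5 reached 354% of its day 0 level on day 14, while Slc3a2 stayed between 45.0% and 164% of its own. Slc1a5 held 64.1, 55.5 and 62.3 CPM on day 0, 42.6, 34.4 and 43.6 on day 1 and 48.2, 80.9 and 62.0 on day 2. It held 108, 125 and 119 CPM on day 4, 123, 146 and 40.8 on day 7, and 117, 133 and 117 on day 14. Day 1 lay below day 0 without overlap, days 4 and 14 lay above it without overlap, and replicate C of day 7 was below all libraries of day 0.

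For Slc1a5 the day 1 difference was -0.59 ± 0.31 (edgeR adjusted p = 0.0981), with an interval from -1.25 to 0.06, and the day 2 difference 0.07 ± 0.31 (edgeR adjusted p = 0.842). It rose by 0.95 ± 0.31 on day 4 and 1.01 ± 0.31 on day 14 (edgeR adjusted p = 0.0107 and 0.00807), that is 1.93 and 2.02-fold. On day 7 the value was 0.77 ± 0.31 (edgeR adjusted p = 0.0353), with replicate C 3.29-fold below the mean of A and B. Without replicate C the day 7 value was 1.15 (edgeR adjusted p = 6.17e-06) and the fall of day 1 was called, at -0.59 (edgeR adjusted p = 0.00186).

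Slc3a2, the heavy chain shared by the basolateral and the growing-cell light chains, did not follow the other carriers of growing cells. Its libraries held 705, 739.7 and 733 CPM on day 0 and 926, 967 and 864 on day 1. They then held 484, 417 and 430.3 on day 2, 275, 279.8 and 269.9 on day 4, 191, 233 and 156 on day 7, and 247, 287 and 256 on day 14. Day 1 was the highest day and day 7 the lowest, and no culture day overlapped day 0.

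The log2 fold change of Slc3a2 against day 0 was 0.34 ± 0.11, -0.71 ± 0.11, -1.40 ± 0.12, -1.91 ± 0.12 and -1.46 ± 0.12 on days 1, 2, 4, 7 and 14 (edgeR adjusted p = 0.0139, 3.42e-05, 1.6e-08, 6.06e-10 and 1.17e-08). From day 7 to day 14 it rose by 0.45 ± 0.11 (edgeR adjusted p = 0.0186), and by 0.31 (edgeR adjusted p = 0.0336) without replicate C of day 7. These sizes depend on the scaling: with library sizes alone the median of all genes moved, relative to day 0, by 0.30, 0.51, 0.49, 0.50 and 0.56 in order from day 1 to day 14, and the day 2 value of Slc3a2 became -0.20 (edgeR adjusted p = 0.0796). In TPM its level on day 1 was 164% of that at isolation, then 93.8% on day 2 and 66.3% by day 14.

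On the later days against day 0 the calls by class were as follows. On day 2, 74.2% of all genes were called, 38.9% higher and 35.3% lower. All 5 tubule carriers and Slc3a2 fell, Slc7a5, Slc38a2 and Slc1a4 rose, and Slc1a5 was not called. On days 4, 7 and 14, where 74.9%, 69.8% and 69.5% of all genes were called (38.1%, 37.6% and 37.4% higher, 36.8%, 32.1% and 32.1% lower), all 5 tubule carriers and Slc3a2 fell and the other 4 carriers of growing cells rose. The day 7 calls were the same 10 without replicate C. On day 4 the median log2 fold change was -9.84 for the luminal, -5.71 for the basolateral and 3.17 for the growing-cell carriers, beside 0.08 for all genes, and on day 14 -9.55, -7.08 and 3.39, beside 0.16.

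Between consecutive days the calls were as follows. From day 1 to day 2 the 3 luminal and 2 basolateral carriers, Slc3a2 and Slc1a4 fell and none rose, where 34.5% of all genes were called, 17.5% lower and 17% higher. The fall of Slc7a8 was not called under 6 of 27 alternatives, such as library sizes alone (edgeR adjusted p = 0.0543) and without replicate B of day 2 (0.093). From day 2 to day 4 the 5 tubule carriers and Slc3a2 fell and Slc7a5 and Slc1a5 rose, where 41.4% were called, 22.1% lower and 19.4% higher. The fall of Slc7a7 was lost in 4 alternatives, among them without replicate A of day 2 (edgeR adjusted p = 0.118). The rises were 0.91 ± 0.18 for Slc7a5 and 0.88 ± 0.31 for Slc1a5 (edgeR adjusted p = 0.000955 and 0.0305).

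From day 4 to day 7 Slc6a19, Slc3a2 and Slc7a5 fell and none rose, where 37.9% of all genes were called, 15.9% lower and 22% higher. Without replicate C of day 7, Slc7a8 also fell and Slc38a2 and Slc1a4 rose by 0.41 and 0.48 (edgeR adjusted p = 0.00448 and 0.00414). From day 7 to day 14 Slc6a19 and Slc7a8 fell and Slc3a2, Slc7a5 and Slc1a4 rose, where 12.5% were called, 7.46% lower and 5.07% higher. Without that library the 3 rises were called and neither fall was.

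Replicate C of day 7 differed from A and B in most carriers. It was lower for the growing-cell carriers, with Slc38a2 at 429 CPM against a mean of 976 in A and B, Slc1a4 at 27.0 against 57.8 and Slc7a5 at 86.3 against 130.2. It was higher for 3 tubule carriers, with Slc7a7 at 16.4 CPM against 5.97, Slc7a8 at 24 against 10.6 and Slc6a19 at 7.50 against 3.09. Its division markers were also high, with a summed level of 1029 TPM against 297 in the lowest library of day 7.

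A pair of ratios was taken within each library, which do not depend on the scaling between libraries. The light chain ratio set a growing-cell chain against its tubule counterpart, and the other set the heavy chains against each other. Slc7a5 over Slc7a8, both partners of Slc3a2, had in TPM a ratio of 0.00585, 0.00602 and 0.00713 in the day 0 libraries. It was 1.26, 1.00 and 1.42 on day 1, 1.82, 4.76 and 2.66 on day 2, 9.29, 18.1 and 12.0 on day 4, 9.98, 21.2 and 4.22 on day 7, and 31.6, 55.8 and 41.4 on day 14. Thus the tubule light chain exceeded the growing-cell one in every day 0 library. In replicate B of day 1 they were level, at 38.4 TPM each, and the growing-cell one was higher in every other culture library. The mean log2 ratio moved by 7.59 from day 0 to day 1 and by 12.69 to day 14, and by 10.57 to day 7, or 11.17 without replicate C. Each culture day against day 0 gave p = 0.1 in a two-sided exact permutation test, the smallest value that 3 libraries against 3 allow.

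Of the heavy chains, Slc3a2, which also serves the basolateral light chains of the tubule, led in every day 0 library already. Its lead over Slc3a1 was wider in culture. Slc3a2 over Slc3a1 was 1.22, 1.21 and 1.39 on day 0, 6.93, 4.70 and 8.15 on day 1, 24, 46.1 and 30.3 on day 2 and 534, 833 and 583 on day 4. The median was 484 on day 7 and 322 on day 14. On days 4, 7 and 14 Slc3a1 held 57, 56 and 95 counts over the 3 libraries, and Slc3a2 was itself below day 0. The size of the ratio on these days thus rests on low counts of Slc3a1. Here too no culture day overlapped day 0, and each gave p = 0.1 in the two-sided exact permutation test. Slc3a2 was level with Slc3a1 to within a factor of 1.39 at isolation.

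Set against its own light chains, the CD98 heavy chain was nearest to their sum at isolation. This sum was chosen after the values of single carriers were seen and is a description. Slc3a2 in TPM was 0.927 ± 0.00682 times the sum of its 6 light chains (Slc7a5, Slc7a6, Slc7a7, Slc7a8, Slc7a10 and Slc7a11) on day 0. On days 1, 2, 4, 7 and 14 it was 5.47 ± 0.594, 3.53 ± 0.621, 1.46 ± 0.0360, 1.80 ± 0.243 and 1.85 ± 0.0191 times that sum. The light chains summed to 504 TPM on day 0, 141 on day 1 and 168 on day 14. Slc7a7 was their most abundant member on day 0, at 52.8% of the sum. On day 1 Slc7a7 and Slc7a5 were level, with means of 42.4 and 42.3 TPM and overlapping libraries, and Slc7a5 led from day 2 on, at 46.2% on day 2 and 64.1% on day 14.

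**Figure D4:**
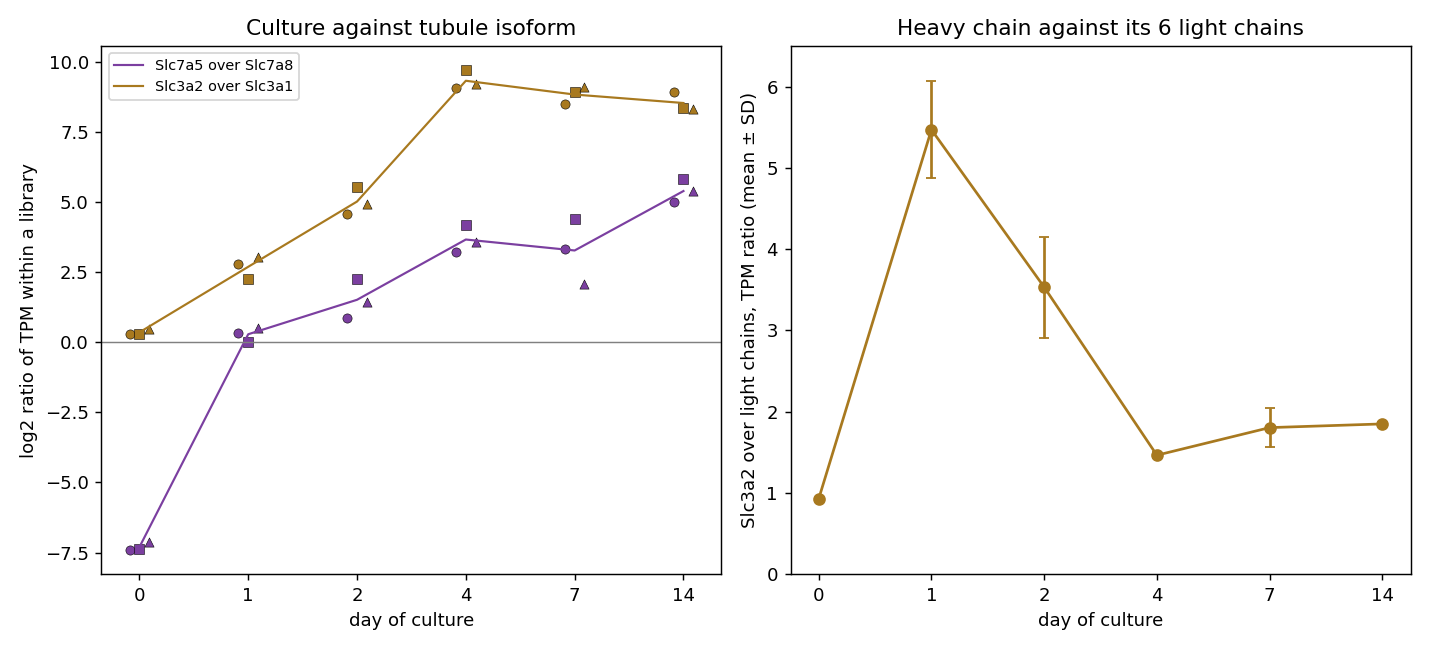
Left, log2 ratio of TPM within each library for Slc7a5 over Slc7a8 and Slc3a2 over Slc3a1, with lines through the day means and a marker shape per replicate; right, Slc3a2 TPM over the summed TPM of its 6 light chains (mean ± SD, n = 3). The first ratio passes from 0.00602 (median) on day 0 to 41.4 on day 14, and the heavy chain peaks at 5.47 times its light chains on day 1.

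Other carriers of the luminal membrane fell with the 3 described. Of 12 listed luminal carriers and partners, 10 had counts enough to test; on day 1, 8 of these were called lower and 0 higher, and on days 2, 4 and 14 all 10 were lower (median log2 fold change -1.47, -3.55, -5.62 and -6.08). Lower calls over all genes were 37.1%, 35.3%, 36.8% and 32.1% on days 1, 2, 4 and 14. Slc6a6 and Slc6a8 turn direction with the scaling: in TPM the mean of Slc6a6 was above day 0 on days 1, 4, 7 and 14, and that of Slc6a8 on days 1 and 2. The 4 most abundant ran different courses. Cltrn (collectrin), which brings Slc6a19 to the brush border, had 3148 ± 325 CPM on day 0, 835 ± 316 on day 1 and 2.58 ± 0.267 on day 14, a log2 fold change of -10.25 (edgeR adjusted p = 3.77e-11). The taurine carrier Slc6a6 had 404 ± 17.4 CPM on day 0 and 208 ± 6.26 on day 14 (-0.96, edgeR adjusted p = 1.31e-08), but 77.1 ± 5.39 and 83.2 ± 1.93 TPM. The glycine carrier Slc6a18 was at 268 ± 36.2 and 197 ± 11.3 CPM on days 0 and 1, not called (edgeR adjusted p = 0.399), and at 8.27 ± 1.14 on day 14. The creatine carrier Slc6a8 was at 131 ± 8.45 CPM on day 0, 28.8 ± 3.27 on day 4 and 55.3 ± 1.41 on day 14, and its fall of -1.25 against day 0 was called (edgeR adjusted p = 1.08e-06).

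Of 5 other basolateral carriers of the tubule, all tested, 4 were called lower on day 1 and on day 14, and 1 higher. For all genes the shares called lower were 37.1% and 32.1% on these days, and 33.1% and 37.4% higher. Slc43a2, a uniporter of large neutral amino acids, went from 388 ± 44.8 to 35.4 ± 6.90 CPM in a day (-3.45, edgeR adjusted p = 9.64e-12) and no later step between consecutive days was called, with 27.6 ± 1.52 on day 14. The carrier of gamma-aminobutyric acid and taurine Slc6a13 went from 129 ± 5.84 to 0.194 ± 0.0864 CPM on day 14 (-9.32, edgeR adjusted p = 1.4e-11) and the aromatic amino acid carrier Slc16a10 from 59.4 ± 7.37 to 16.1 ± 1.41 (-1.88, edgeR adjusted p = 1.62e-07). The exception was Slc6a12, the betaine carrier, which rose from 1.2 ± 0.650 CPM on day 0 to 4.89 ± 2.05 on day 1 and 18.1 ± 0.280 on day 14 (2.06 and 3.94, edgeR adjusted p = 0.00719 and 3.61e-05), and was not called on days 2 and 4.

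Beyond the growing-cell carriers chosen, 15 further plasma membrane carriers were listed and 12 tested. On day 1, 6 were called higher and 4 lower, on day 4, 7 and 5, and on day 14, 7 and 4 (median log2 fold change 0.75, 1.84 and 2.34). Being called was usual, with 70.2%, 74.9% and 69.5% of all genes called on these days (medians -0.01, 0.08 and 0.16). The 4 named next have the highest mean over the 18 libraries, a choice that favours genes high in culture. The 4 with the highest level on day 0 (named after values were seen) were Slc6a15, Slc7a2, Slc6a9 and Slc38a4, at 5.34 to 2.02 TPM, and on day 14 Slc6a9, a glycine carrier, was higher (3.33) and the other 3 lower (-3.58, -6.90 and -4.50, edgeR adjusted p at most 1.34e-05 for all 4). The arginine and lysine carrier Slc7a1 went from 4.79 ± 0.981 CPM on day 0 to 102 ± 6.30 on day 1 and 239.9 ± 8.80 on day 14 (5.65, edgeR adjusted p = 3.29e-11). The glutamine carrier Slc38a1 rose more slowly, from 5.21 ± 1.12 to 18.1 ± 1.53 CPM on day 1, 142 ± 2.64 on day 4 and 162 ± 7.28 on day 14 (4.97, edgeR adjusted p = 3.69e-11). Slc7a6, another light chain of Slc3a2, rose from 4.86 ± 0.663 to 59.2 ± 6.70 CPM (3.61, edgeR adjusted p = 2.71e-11). Slc7a3, a further basic amino acid carrier, went from 0.106 ± 0.108 CPM on day 0 to 12.2 ± 3.10 on day 4 and 145 ± 16.4 on day 14 (10.23, edgeR adjusted p = 3.69e-08), from 8 counts over the day 0 libraries.

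Of 5 listed carriers of the lysosome, all tested, none was called higher, 3 were lower on day 1 and 4 on day 14. In TPM 2 of these 4, Ctns (26.3 TPM) and Slc38a9 (4.12), had a higher mean on day 14 than on day 0, and the sum over the 5 was 68.1 on day 0 and 75.8 on day 14. The share of all genes called lower was 37.1% on day 1 and 32.1% on day 14. The cystine exporter Ctns went from 59.3 ± 4.27 CPM on day 0 to 11.6 ± 1.03 on day 4 and 36.1 ± 3.34 on day 14 (-0.71, edgeR adjusted p = 0.00557), and the exporter of basic amino acids Pqlc2 from 37.4 ± 1.70 to 19.9 ± 0.757. Slc36a1, a proton-coupled carrier, went from 21.7 ± 1.54 to 2.22 ± 0.137 CPM (-3.28, edgeR adjusted p = 1.84e-09). Slc38a7, a glutamine carrier, stood at 31.4 ± 3.32 and 33.3 ± 1.71 CPM and was not called (0.09, edgeR adjusted p = 0.703).

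Genes of the amino acid response, which ATF4 is known to switch on when amino acids are short, and genes of nutrient sensing formed a list of 15, all tested. On day 1, 11 were called higher and 3 lower, on day 4, 9 and 3, and on day 14, 11 and 1 (median log2 fold change 1.89, 0.49 and 2.19). Among all genes, 33.1%, 38.1% and 37.4% were called higher on these days and 37.1%, 36.8% and 32.1% lower (medians -0.01, 0.08 and 0.16). Atf4 itself went from 56.3 ± 4.43 CPM at isolation to 573 ± 4.00 on day 1, then 219 ± 3.52 on day 4 and 256 ± 24.9 by day 14. Its target Asns, asparagine synthetase, went from 4.75 ± 0.601 to 309 ± 18.3 CPM on day 1 and 455 ± 27.7 on day 14 (6.03 and 6.59, edgeR adjusted p = 8.36e-11 and 2.5e-11). Eif4ebp1, a brake on translation, went from 16.1 ± 2.25 to 233 ± 7.19 and 211 ± 11.6 CPM, and the growth regulator Myc from 12.0 ± 3.45 to 419 ± 45.2 and 238 ± 23.5. Mtor was among the genes that fell on day 1 and on day 14.

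On days 1 and 14 markers of cell division differed in timing from Slc7a5, Slc38a2 and Slc1a4. Of 8 listed, all tested, 2 were called higher on day 1 (Pcna and Mcm2) and 8 on days 2, 4 and 7. On day 14, 2 were higher (Cdk1 and Rrm2), and none was lower than day 0 on any day. Higher calls over all genes were 33.1%, 38.9%, 38.1%, 37.6% and 37.4% on days 1, 2, 4, 7 and 14. Slc7a5 went with the markers in part. From day 1 to day 2 all 8 rose and Slc7a5 was not called (17% of all genes higher). From day 2 to day 4 it rose, as did 4 of 8 (19.4% higher). From day 4 to day 7 it fell, as did all 8 (15.9% lower). From day 7 to day 14 it rose while all 8 fell (7.46% lower). Rrm2, a subunit of ribonucleotide reductase, had 11.0 ± 1.84, 15.2 ± 5.17, 281 ± 95.2, 705 ± 44.5 and 33.9 ± 2.61 CPM on days 0, 1, 2, 4 and 14. Cdk1, which drives entry into mitosis, had 2.15 ± 0.505, 1.64 ± 0.858, 61.1 ± 22.6, 171 ± 9.49 and 9.82 ± 0.445 CPM on the same days, its partner Ccnb1 233 ± 14.8 on day 4 and 5.93 ± 0.970 on day 14, and the replication clamp Pcna 168 ± 8.53 and 46.8 ± 2.20.

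By sums in TPM, the division markers lay between 40.2 and 49.1 in the day 0 libraries, between 88.6 and 116 on day 1, between 1412 and 1561 on day 4 and between 134 and 146 on day 14. The 4 carriers of growing cells other than Slc3a2 had means of 43.1, 263, 440.1 and 564 TPM on these 4 days. The response and sensing genes lay between 224 and 237, 1770 and 1879, 1312 and 1400, and 2146 and 2350. On day 1 Slc7a5, Slc38a2 and Slc1a4 were already 7.94 to 21.9-fold above day 0. Of 8 division markers 6 were not called, with a median log2 fold change of 0.06. On day 14 these carriers were 10.5 to 40.5-fold above day 0, and again 6 of 8 markers were not called (median 0.88). Slc1a5 went another way, not called on days 1 and 2 and 1.93-fold above day 0 on day 4. Over all genes, 70.2% were called on day 1 and 69.5% on day 14. A link between carriers and division was not tested. The summed level of the markers was above day 0 without overlap on both day 1 and day 14.

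**Figure D5:**
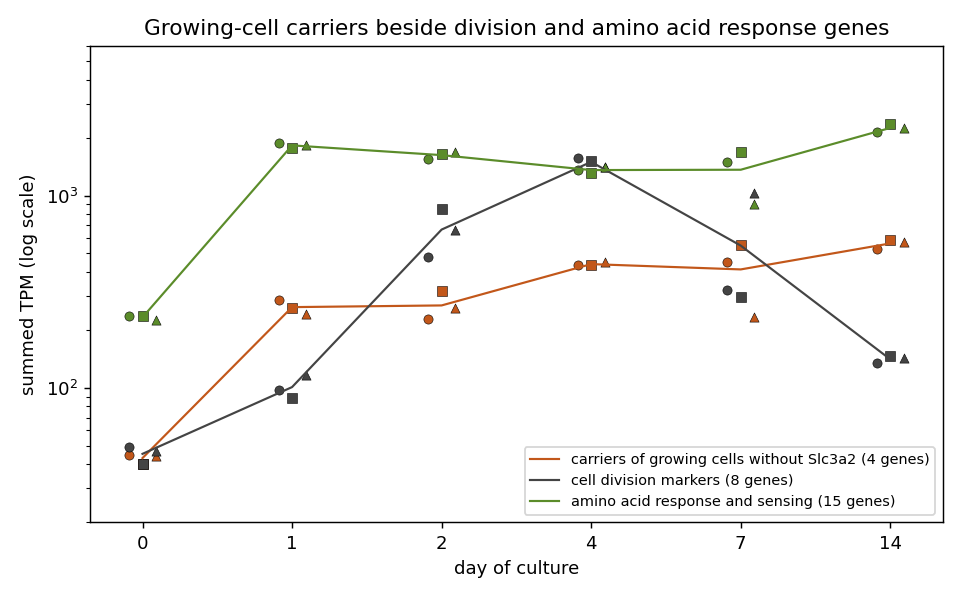
Summed TPM (log axis) of the growing-cell carriers other than Slc3a2 (4 genes), of the cell division markers (8 genes) and of the amino acid response and sensing genes (15 genes) against day of culture; points are single libraries (circle A, square B, triangle C) and lines join the day means. Division markers peak between 1412 and 1561 TPM on day 4 and lie between 134 and 146 on day 14, above the 40.2 to 49.1 of day 0, while the carriers go on to a mean of 564.

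Across the 18 libraries the carriers other than Slc1a5 fell into 2 blocks by correlation of log2 CPM, given as a description since libraries of a day share that day. Slc3a1 and Slc7a9 had Pearson r = 0.976, Slc7a7 and Slc7a8 r = 0.975, Slc7a5 and Slc38a2 r = 0.965, and Slc38a2 and Slc1a4 r = 0.955. Slc3a2 went with the tubule, with r = 0.944 to Slc3a1 and -0.524 to Slc7a5. Slc1a5 joined neither block closely, with r = 0.400 to Slc7a5, 0.414 to Slc38a2, 0.301 to Slc1a4 and -0.736 to Slc6a19.

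The genes most like 4 of the carriers were sought among 9694 genes with at least 10 CPM on average. For Slc6a19 they were the lysophosphatidic acid receptor Lpar3 (r = 0.9955), the kallikrein Klk1 (0.9922) and Crym (0.9921). For Slc7a8 they were Rab3il1 (0.9913), the creatine-synthesis enzyme Gatm (0.9913) and the transcription factor Hnf4a (0.9882). For Slc7a5 they were Epop (0.9945) and the tRNA synthetases Cars (0.9926) and Gars (0.9896), for cysteine and glycine. For Slc38a2 they were Selenoi (0.989), Ajuba (0.9879) and the basic amino acid carrier Slc7a1 (0.9876).

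In GRCm38 with the GENCODE vM21 annotation, the luminal genes lie at chr13:73679745-73704865 (Slc6a19, ENSMUSG00000021565, minus strand), chr17:85028376-85064236 (Slc3a1, ENSMUSG00000024131, plus) and chr7:35448796-35466036 (Slc7a9, ENSMUSG00000030492, plus). Slc7a7 (ENSMUSG00000000958) and Slc7a8 (ENSMUSG00000022180) share chromosome 14, at chr14:54369442-54417780 and chr14:54722209-54781946, both minus. The RefSeq starts used above for Slc7a7 (chr14:54417944) and Slc3a1 (chr17:85028347) lie upstream of these annotated spans. The growing-cell genes lie at chr19:8706882-8723369 (Slc3a2, ENSMUSG00000010095, minus), chr8:121881150-121907694 (Slc7a5, ENSMUSG00000040010, minus), chr7:16781340-16798274 (Slc1a5, ENSMUSG00000001918, plus), chr15:96687392-96699730 (Slc38a2, ENSMUSG00000022462, minus) and chr11:20302180-20332713 (Slc1a4, ENSMUSG00000020142, minus). Of these genes 4 overlap another on the opposite strand. Whole gene spans were compared, and whether exons overlap was not looked at. Strandedness of the counting is not given in the sources used here. Without it, reads from any exon stretch common to both genes cannot be told apart by strand. The partners were Slc6a19os (mean 2.06 TPM over the 18 libraries), Prepl at Slc3a1 (21.8), Oxa1l at Slc7a7 (20.9) and Gm20388 at Slc7a5 (6.94).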

How the data were processed

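Values came from 2 tables of the whole series, with columns matched to samples through the labels. The authors deposited estimated counts per gene (whole numbers) and TPM per gene, which is scaled within each library and holds no depth. The submitters' processing notes name RSEM 1.3.3, STAR 2.7.8a, FastQC 0.11.8, cutadapt 2.3 and the build GRCm38; the annotation release is not given in the sources used here. Left out were 5 reporter entries of 55426. CPM were computed on TMM-scaled library sizes. The filterByExpr rule left 18754 genes, tested with edgeR 4.0.16 (R 4.3.3) by the quasi-likelihood F test, with 6 day means and no other term. Standard errors are log2 fold changes divided by the root of F, and log2 CPM used a prior count of 2. Exact permutation tests and figures used scipy 1.17.1 and matplotlib 3.10.9 (Python 3.11.15). The fit was also run on simulated counts in which few genes changed, and on day 1 alone. That does not test the scaling where most genes change.

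The carriers, gene lists and tests were chosen with earlier results of these data known. Named are all 10 carriers, of each pathway list the 4 genes with the highest mean TPM over the 18 libraries, and for 4 carriers the 3 most correlated genes; Mtor, Mcm2, Slc38a9, Slc7a13, 4 further carriers high on day 0 and the light chains summed were named after values were seen. All 116 list genes were found, 2 by a synonym. Alternatives were DESeq2 1.42.0 size factors and Wald test, library sizes alone, no filter, the replicate letter as a term, only the days compared, limma 3.58.1 on log2 TPM (a pseudocount of 1 or 0.1 for genes of mean TPM 0.5 or more, or 1 unfiltered), and each library left out. For the shares, CPM and TPM + 1 were tried.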

Additional observations from a re-analysis of the deposited data

How the results depend on the processing

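Of 90 differences (10 carriers, 9 comparisons), 71 kept their side of the threshold under all 27 alternatives, 47 of 50 against day 0 and 24 of 40 between consecutive days. Of these 71, 63 also kept their direction, and 8 that were never called changed sign: Slc1a5 on day 2 against day 0, Slc1a5, Slc3a1, Slc7a7 and Slc7a9 from day 4 to day 7, and Slc1a5, Slc38a2 and Slc7a9 from day 7 to day 14. No called difference reversed. Against day 0 the exceptions were Slc1a5 on day 1 (called with only the days compared, by the DESeq2 Wald test and without day 7 replicate C), Slc1a5 on day 7 (not called under 8 alternatives, adjusted p up to 0.215) and Slc3a2 on day 2 (not called with library sizes alone and in 3 limma fits, down to -0.09 with adjusted p 0.504). limma on log2(TPM + 1) moved the median of all genes by 0.35 to 0.77 against day 0.

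Counts of carriers changed in 4 steps. The shares of all genes called that are given above belong to the main fit and were not taken for the alternatives. A changed count of carriers is thus not told apart from a change over all genes. From day 1 to day 2, higher calls numbered 0, and 1 (Slc1a5) with library sizes alone and with only the days compared, with 0 to 1 over libraries left out (1 without day 7 C). From day 2 to day 4 they numbered 2, against 4 with only the days compared and 1 by limma without the filter, with 1 to 4 over libraries left out (1 without day 2 A or C or day 4 B or C, 4 without day 7 C). In that step Slc38a2 was called as well with DESeq2 size factors, without the filter and with the replicate block. It was also called by the DESeq2 Wald test and by limma on log2 TPM with the filter, at either pseudocount. From day 4 to day 7 higher calls numbered 0, and 0 to 2 over libraries left out (2 without day 7 C). From day 7 to day 14, the 3 higher calls became 0 with only the days compared, and the 2 lower calls became 0 there and by limma on log2(TPM + 1) with and without the filter, with 0 to 3 over libraries left out (0 without day 7 C or day 14 B, 1 without day 14 A or C, 3 without day 7 B), and 3 without the filter and by the DESeq2 Wald test. Lower calls from day 1 to day 2 numbered 7, and 6 to 8 over the alternatives, and those from day 2 to day 4 numbered 6, and 5 to 6. Without day 7 C the value of Slc38a2 from day 2 to day 4 stayed at 0.53, and its edgeR adjusted p went from 0.0594 to 0.000228. For Slc1a5 on day 1 against day 0 the value stayed at -0.59, with edgeR adjusted p of 0.0981 and 0.00186. The cause of these changes was not tested.

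The growing-cell share in CPM in place of TPM was 17.6%, 67.3% and 83.4% on days 0, 1 and 2, and with TPM + 1 it was 98.4% on day 14. With the replicate letter as a block, Slc1a5 on day 7 against day 0 was 0.72 (edgeR adjusted p = 0.0542) and Slc38a2 from day 2 to day 4 was 0.54 (edgeR adjusted p = 0.0496), and calls of the other differences against day 0 did not change. Deviations of same-letter libraries correlated from -0.172 to 0.423 (median 0.0247, 8 of 45 pairs over 0.1), so the letters are not taken as pairs. Depth limits Slc3a1 and Slc7a9 from day 4 on, at 36 to 95 counts over the 3 libraries of a day. Counting only called list genes whose mean TPM moved the same way, chosen after seeing the data, left 2 of the 4 lysosomal carriers lower on each of days 4, 7 and 14, and moved no other list's count by more than 1.5 times.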
